A study of Mus musculus with 8 samples.

Results

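The genes described here encode the proteins of the centromere and the kinetochore, the spindle assembly checkpoint and the chromosomal passenger complex. They were taken by symbol from the rows of the deposited expression table that lie on primary chromosomes. All 43 genes were found, each on 1 such row, out of 52778 rows in the table. All 43 also passed the filter on low values, a mean of at least 1 TPM (a length-normalized transcript level whose sum is fixed at 1000000 in every library) over the 8 libraries, as did 15541 rows in all. The libraries were made from mouse ventricular heart tissue at embryonic day 11.5. In 4 libraries, called cKO, floxed copies of Rps19bp1 (Rps19bp1 fl/fl) had been deleted in cardiomyocytes by Xmlc2-Cre, carried as +/−, and the other 4 came from embryos labelled control, whose alleles the labels do not give. The product of Rps19bp1 resides in the nucleolus and is a partner of ribosomal protein S19. The driver is labelled as acting in cardiomyocytes while whole ventricle, other cell types included, was sequenced, and in bulk tissue fewer cells of a type and less RNA per cell cannot be told apart. The labels contradict each other: the genotype field reads C57BL/6 WT for all 8 libraries, and the extraction text names cultured cortical neurons, whereas titles, treatment field and series text give the knockout and the ventricle. Cardiomyocyte markers were abundant in every library, with a summed level of 18 genes of 57254 to 60363 TPM in cKO and 57505 to 62578 TPM in control.

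The centromere is marked by nucleosomes that hold the histone H3 variant CENP-A. On them stands the constitutive centromere-associated network, which carries the outer kinetochore, the machine that grips spindle microtubules in mitosis. Checkpoint proteins gather at unattached kinetochores and delay anaphase, and the chromosomal passenger complex releases wrong attachments through its kinase Aurora B. Many of these genes are transcribed mainly in dividing cells, and the embryonic ventricle grows by cardiomyocyte division.

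As a check of the labels, transcripts of the deleted gene were read in each library. Rps19bp1 (chr15:80260614-80264306, minus strand, GRCm38) stood at 40.9, 44.2, 34.7 and 40.05 TPM in control replicates 1 to 4 and at 15.2, 11.8, 13.7 and 19.2 TPM in cKO replicates 1 to 4 (log2 change -1.37, SE 0.127, limma adjusted p = 0.000508), so the groups did not overlap and residual transcript was present in every cKO library. Between 15336 and 15752 rows per library reached 1 TPM, and TPM keeps no depth, so the counting error behind each value is unknown. Mitochondrial transcripts took 13.2 to 16.2% of TPM in cKO and 11.4 to 12.2% in control, with the highest share in cKO replicate 3. Among marker lists, 9 of 10 epicardial genes were higher in cKO (5 called, summed level 474 to 583 against 412 to 473 TPM), and 11 of 12 mesenchymal genes were higher (4 called higher and 1 lower, summed level 1021 to 1222 against 746 to 942 TPM). Both sums separated the groups (exact two-sided permutation p = 0.0286 each, the smallest that 4 against 4 can give, 0.0643 after Benjamini-Hochberg adjustment over 9 such tests), and no gene of either list was at 0. Of the other lists, 11 of 12 endocardial and endothelial genes and 9 of 10 tested macrophage genes were higher, with 0 called (limma; 5 and 1 at an unadjusted p under 0.05). Of the cardiomyocyte markers 13 of 18 were lower, and 1 was called, the transcription factor gene Nkx2-5 (log2 change -0.48, limma adjusted p = 0.0453). The part of these cell types in the results below was not tested. Erythroid sums overlapped (2123 to 4504 against 2346 to 8480 TPM), with 15 of 16 tested genes lower in cKO and 1 called. Beside these counts, 2.16% of all tested genes were called higher, 4.23% were called lower and 55.8% had a fitted change below 0.

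Centromere and kinetochore transcripts were lower in the knockout hearts, and each of 7 role groups held at least 1 gene that fell. In the SKA complex this was Ska3 alone, whose call was lost under 10 of 20 alternatives. All 43 genes had a fitted change below 0, where 55.8% of all tested genes did. Of the 43, 21 fell past an adjusted p of 0.05 (limma on log2(TPM + 1), Benjamini-Hochberg over all 15541 rows), and 0 rose, against 4.23% of all tested genes called lower and 2.16% called higher. At an unadjusted p under 0.05 the count was 32, all lower, against 15.4% of all tested genes lower at that p. The groups did not overlap for 26 of the 43, every cKO library being lower, which held for 10.3% of all tested genes. The reverse order held for 0 of the 43 and for 5.33% of all tested genes. The median log2 change was -0.31, beside -0.02 over all tested genes. Mean cKO levels lay between 72.4% (Bub1b) and 96.6% (Cenpt) of the control mean, with a median of 80.7%. With a Y-linked score as a covariate the median was -0.27 and 10 genes were called lower, while the share of all tested genes called lower was 1.27%. This score was the mean log2(TPM + 1) of Ddx3y, Eif2s3y, Kdm5d and Uty. Why fewer genes were called with it was not tested. With an erythroid score the median was -0.28, 12 genes were called and the share was 2.48%. For the 22 genes that did not pass, a missed threshold does not show that a gene was unchanged.

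**Figure D1:**
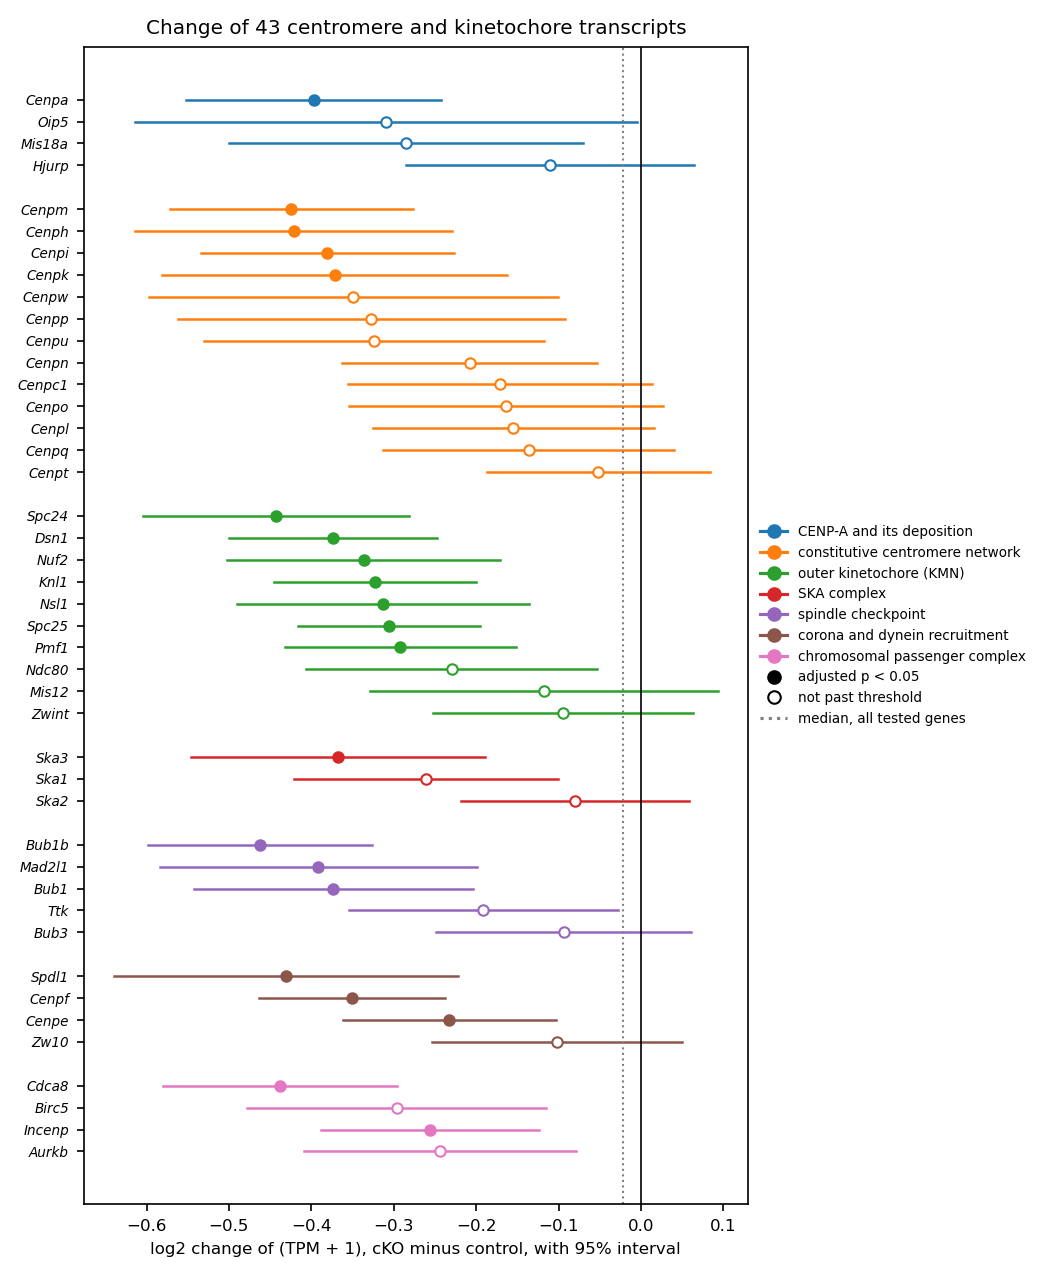
Fitted log2 change of (TPM + 1), cKO minus control, for the 43 genes, with 95% intervals (x axis) and genes ordered by change within 7 role groups (y axis). Filled points are the 21 genes with an adjusted p under 0.05, open points the other 22, and the dotted line is the median of all tested genes, -0.02. All points lie below 0, and 7 of 10 outer kinetochore genes but 4 of 13 centromere network genes are filled.

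The libraries differed in how low these transcripts stood. Relative to the control mean of each gene, the median over the 43 genes was 105, 94.96, 99.8 and 99.5% in control replicates 1 to 4 and 85.1, 86.4, 72.6 and 80.7% in cKO replicates 1 to 4. All 4 cKO libraries thus lay below all 4 control libraries, and cKO replicate 3, the library with the highest mitochondrial share (16.2%), was the lowest. It held the lowest value of all 8 libraries for 35 of the 43 genes. Without cKO replicate 3 the median change was -0.24 and 13 genes were called lower, with 1.72% of all tested genes called lower in the same fit; 42 of the 43 fitted changes stayed below 0, and that of Cenpt was 0.00. With mitochondrial and globin genes removed before rescaling, the median was -0.27 with 17 called, against 2.44% of all genes. The number called was also 11 without control replicate 1 and 10 without control replicate 3, against 1.47% of all genes in each of these fits. Scaling changed the split of all calls, 33.8% of which were higher in cKO as deposited and 50.2% after quantile normalization, where 18 of the 43 genes were called lower against 2.45% of all genes.

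**Figure D2:**
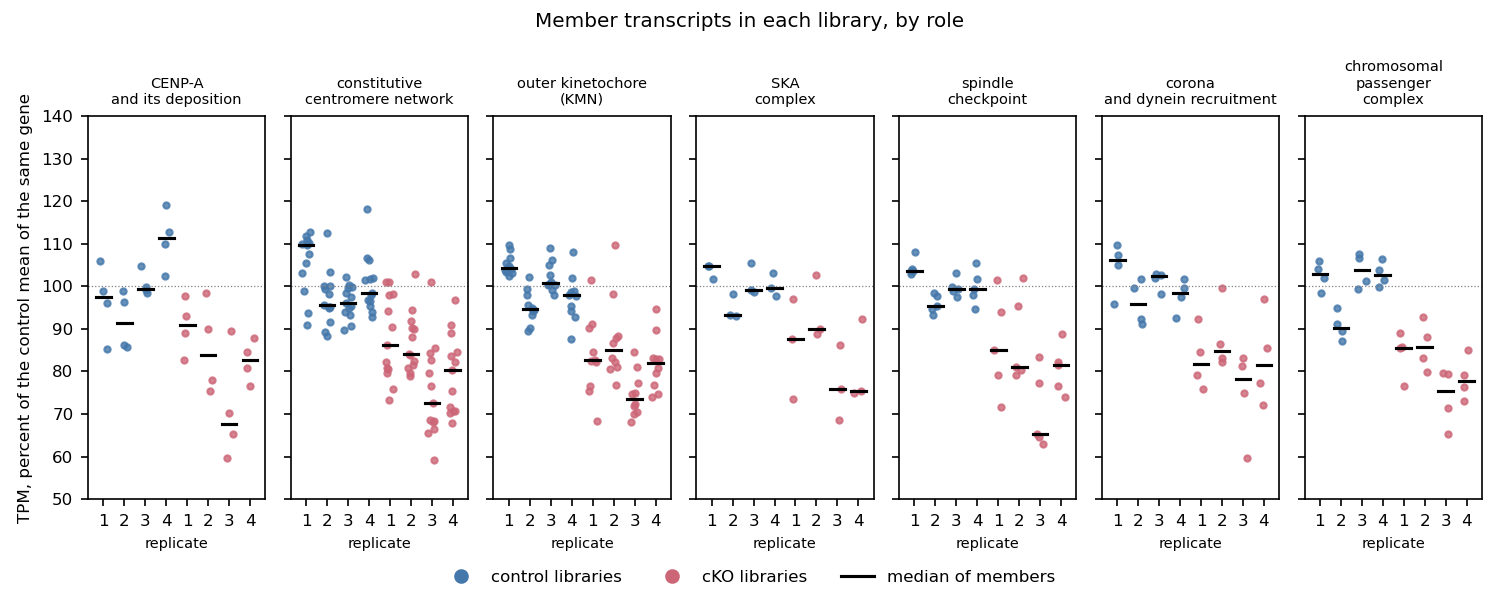
TPM of each gene as a percent of its own control mean (y axis) in each of the 4 control (blue) and 4 cKO (red) libraries (x axis, replicate number), in 1 panel per role group; black bars are medians over the genes of the panel. Replicate 3 of the cKO holds the lowest of the 8 values for 35 of the 43 genes.

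To see what these genes share beyond their role, the RefSeq promoter windows (GRCm38.p6, 250 bases before to 50 bases after the gene start) were searched. In many mitotic genes a cell cycle homology region (CHR), bound by the MuvB core of the DREAM and MYB-MuvB complexes, lies close to the start, and CCAAT boxes bound by NF-Y lie upstream of it. The window table held 38 of the 43 genes (absent were Spc24, Nsl1, Ska1, Aurkb and Incenp), and for 18 of the 38 the start was that of the deposited row to the base. The motifs were TTTGAA and TTCGAA (CHR-type), CCAAT, and the E2F-type TTTCCCGC, TTTGGCGC, TTTCGCGC and TTTGCCGC, each on both strands. In 2 places matches of different classes overlapped, in Cdca8 and Cenpw. A CHR-type match stood in 21 of 38 windows (55.3%), against 14.1% of the 13940 windows of tested genes. CCAAT stood in 26 (68.4% against 37.6%), both together in 16 (42.1% against 5.86%), and an E2F-type match in 4 (10.5% against 3.92%). Within the first 50 transcribed bases, 12 of 38 genes (31.6%) had a CHR-type match, against 1.71% of windows of tested genes. These shares describe the letters only.

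Genes that fell and genes that did not pass the test both carried the motifs. The windows furthest from the deposited start were mostly of genes that did not pass: Cenpt (3078 bp), Cenpc1 (379 bp), Cenpo (290 bp) and Cenpp (219 bp). Cenpm (437 bp), which fell, was the only other such window and the only one of these with a CHR-type match. A CHR-type match was present in 11 of 18 genes that fell and in 10 of 20 that did not pass. In the first 50 transcribed bases it was present in 8 of 18 and in 4 of 20, and this difference was not tested. The sequences below show both cases, 120 bases before and 30 bases from the start on, 5′ to 3′ along the gene, with matches in capitals. The first 5 genes fell, and the last 4 did not pass the test. Each of the first 5 has a CHR-type match after the start and a CCAAT box, so they do not stand for all genes that fell. Nuf2 and Mad2l1 also fell, and their windows held no match of any class. In Cdca8 the CHR-type match and a reverse CCAAT box share a base.
Cenpa: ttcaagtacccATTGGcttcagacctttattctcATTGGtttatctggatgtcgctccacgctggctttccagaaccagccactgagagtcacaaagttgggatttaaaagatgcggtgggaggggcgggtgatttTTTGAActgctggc
Spc25: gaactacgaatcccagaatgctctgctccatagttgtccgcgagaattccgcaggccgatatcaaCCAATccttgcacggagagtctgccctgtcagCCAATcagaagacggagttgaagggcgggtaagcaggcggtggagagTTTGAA
Bub1: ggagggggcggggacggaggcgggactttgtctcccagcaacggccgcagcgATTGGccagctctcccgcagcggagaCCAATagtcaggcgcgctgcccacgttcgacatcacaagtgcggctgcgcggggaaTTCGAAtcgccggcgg
Cenpf: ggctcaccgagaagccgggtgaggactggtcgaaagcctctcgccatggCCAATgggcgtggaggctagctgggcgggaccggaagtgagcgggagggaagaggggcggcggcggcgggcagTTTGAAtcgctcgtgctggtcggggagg
Cdca8: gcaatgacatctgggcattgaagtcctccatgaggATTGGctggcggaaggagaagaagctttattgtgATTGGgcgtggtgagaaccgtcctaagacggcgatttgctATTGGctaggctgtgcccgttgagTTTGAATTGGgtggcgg
Hjurp: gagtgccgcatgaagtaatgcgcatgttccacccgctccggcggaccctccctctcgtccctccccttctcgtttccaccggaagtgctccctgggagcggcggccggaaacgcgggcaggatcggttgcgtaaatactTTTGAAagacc
Ttk: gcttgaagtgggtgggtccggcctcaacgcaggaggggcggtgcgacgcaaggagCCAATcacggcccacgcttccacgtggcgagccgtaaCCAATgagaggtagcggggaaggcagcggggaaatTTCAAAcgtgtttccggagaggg
Bub3: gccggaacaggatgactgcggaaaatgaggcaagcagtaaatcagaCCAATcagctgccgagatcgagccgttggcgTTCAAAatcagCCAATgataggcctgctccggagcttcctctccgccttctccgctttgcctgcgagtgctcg
Zwint: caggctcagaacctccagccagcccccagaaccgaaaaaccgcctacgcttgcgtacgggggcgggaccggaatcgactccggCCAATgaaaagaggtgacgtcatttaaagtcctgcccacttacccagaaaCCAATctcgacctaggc
They lie at chr5:30666766-30666915 (plus strand) for Cenpa, chr2:69206184-69206333 (minus strand) for Spc25, chr2:127831830-127831979 (minus strand) for Bub1, chr1:189688057-189688206 (minus strand) for Cenpf and chr4:124936888-124937037 (minus strand) for Cdca8. Those of the other genes are chr1:88277550-88277699 (minus strand) for Hjurp, chr9:83834569-83834718 (plus strand) for Ttk, chr7:131560250-131560399 (plus strand) for Bub3 and chr10:72654726-72654875 (plus strand) for Zwint.

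**Figure D3:**
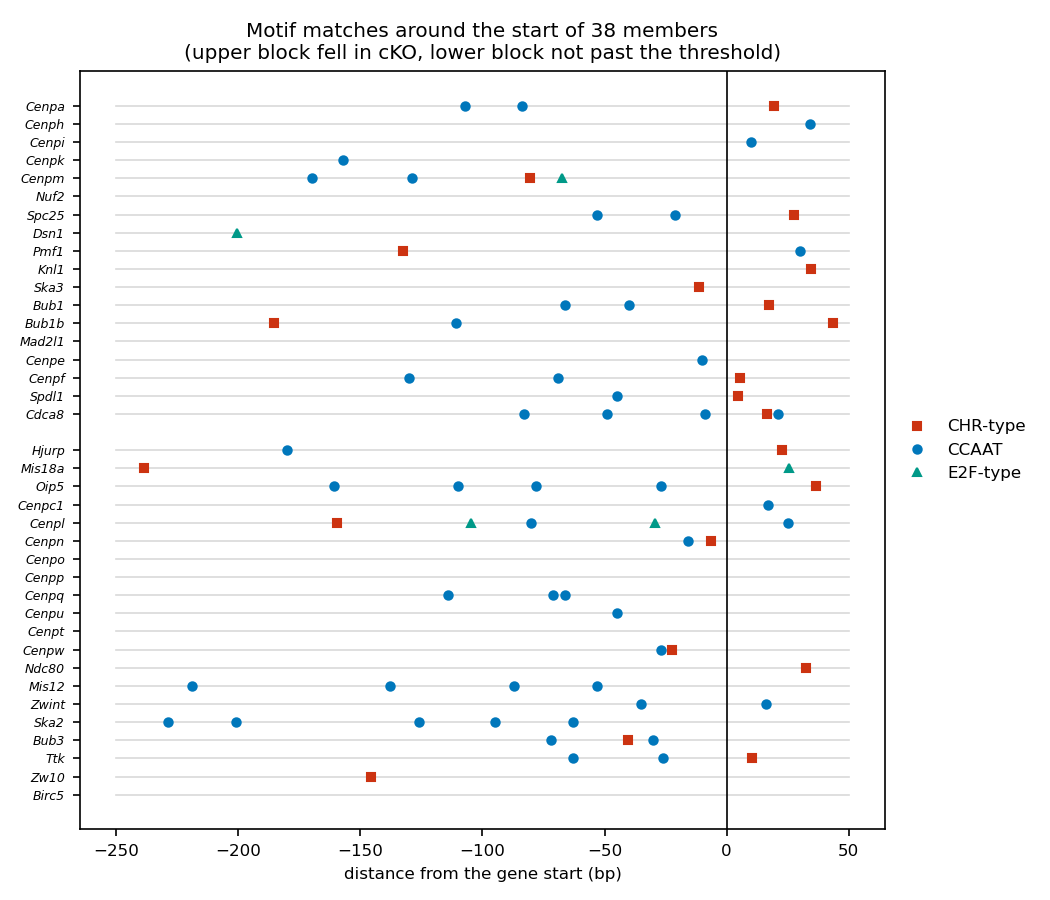
Positions of CHR-type (red squares), CCAAT (blue circles) and E2F-type matches (green triangles) relative to the gene start (x axis, bp, from 250 before to 50 after) in 38 genes (y axis); the upper block holds the 18 genes that fell and the lower block the 20 that did not pass the test. Of the 12 genes with a red square after the start, 8 are in the upper block.

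Among the genes of CENP-A and its deposition, 1 of 4 fell. Cenpa (chr5:30666877-30674837, plus strand), the centromeric histone itself, stood at 136, 136, 138 and 141 TPM in control replicates 1 to 4 and at 114, 104, 89.98 and 111 TPM in cKO replicates 1 to 4. The control libraries lay close together and every cKO library was lower, with cKO replicate 3 the lowest. Mean levels were 138 ± 2.39 TPM in control and 105 ± 10.8 TPM in cKO (SD, n = 4; log2 change -0.40, SE 0.0697, limma adjusted p = 0.0124). Hjurp, the chaperone that delivers CENP-A, had 69.9, 62.8, 76.4 and 82.2 TPM in control and 67.7, 71.6, 65.1 and 64.03 TPM in cKO. Its groups overlapped, no cKO library lying below the lowest control library, and it did not pass the test (log2 change -0.11, SE 0.0786, limma adjusted p = 0.437, 95% interval -0.29 to 0.06). The pair that licenses the centromere for new CENP-A also missed the threshold. Mis18a had 25.1, 20.4, 23.3 and 26.1 TPM in control and 21.1, 21.3, 16.6 and 18.1 TPM in cKO (log2 change -0.28, SE 0.0965, limma adjusted p = 0.11), with cKO replicates 1 and 2 inside the control range. Oip5 had means of 14.97 TPM in control and 11.98 TPM in cKO (log2 change -0.31), with the widest interval of the 43 genes, from -0.61 to just under 0, and its row overlaps Nusap1 on the opposite strand.

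In the constitutive centromere network, 4 of 13 genes fell, and these 4 are the whole CENP-H/I/K/M subcomplex. Cenpm (chr15:82233762-82244773, minus strand) went from 33.5, 30.97, 32.6 and 33.02 TPM in control to 23.8, 27.3, 22.3 and 22.8 TPM in cKO (log2 change -0.42, SE 0.0662, limma adjusted p = 0.0079), and Cenpi (chrX:134308084-134363104, plus strand) from 17.1, 14.9, 15.4 and 15.1 to 11.8, 12.7, 10.7 and 11.8 TPM (log2 change -0.38, SE 0.0691, limma adjusted p = 0.0146). Neither gene had overlap between the groups, all cKO libraries being lower. Cenph (control mean 22.1 TPM, cKO mean 16.2 TPM, log2 change -0.42, adjusted p = 0.0232) and Cenpk (control mean 24.2 TPM, cKO mean 18.5 TPM, log2 change -0.37, adjusted p = 0.0452) fell by similar fitted amounts. The call of Cenph was lost without cKO replicate 3 or control replicates 2 or 3, and that of Cenpk without any library other than cKO replicate 2 (limma adjusted p up to 0.11). That the 4 genes form 1 subcomplex was seen after their values, and no test compared them with the other network genes.

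The other 9 network genes did not pass the test, with limma adjusted p from 0.0682 to 0.657. Cenpt, whose protein links the centromere directly to the Ndc80 complex, was the least changed of all 43, at 42.5, 44.4, 42.9 and 42.1 TPM in control and 43.4, 44.3, 36.8 and 41.6 TPM in cKO (log2 change -0.05, SE 0.0609, limma adjusted p = 0.657). Its groups overlapped, and the 95% interval of its change was -0.19 to 0.08. Its histone-fold partner Cenpw had means of 17.9 TPM in control and 13.9 TPM in cKO (log2 change -0.35), with no overlap between groups. For CENP-C, which binds CENP-A nucleosomes, Cenpc1 had means of 24.2 TPM in control and 21.4 TPM in cKO (log2 change -0.17). In the CENP-L/N pair, also a reader of CENP-A nucleosomes, Cenpl had 9.14 TPM in control and 8.101 TPM in cKO (log2 change -0.15) and Cenpn 27.2 TPM in control and 23.4 TPM in cKO (log2 change -0.21), the latter with no overlap between groups. The CENP-O/P/Q/U subunits, which serve kinetochore stability, had 10.6 TPM in control and 9.396 TPM in cKO (log2 change -0.16) for Cenpo, 16.8 TPM in control and 13.3 TPM in cKO (log2 change -0.33) for Cenpp, 8.29 TPM in control and 7.46 TPM in cKO (log2 change -0.14) for Cenpq and 5.89 TPM in control and 4.48 TPM in cKO (log2 change -0.32) for Cenpu. Cenpu was the least abundant of the 43 genes and had no overlap between groups. Without cKO replicate 1, the only cKO library inside the control range of Cenpp, that gene passed the threshold (limma adjusted p = 0.031). That choice of library follows from the values themselves, so this is not a call. Cenpo, Cenpp, Cenpk, Cenpn, Cenpt, Cenpu and Cenpq overlap other rows, so part of their reads is uncertain if counting ignored strand, and for Cenpq also if it did not, since Glyatl3 is on the same strand.

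The outer kinetochore, made of the Ndc80 and Mis12 complexes and Knl1, held the largest number of genes that fell, 7 of 10. Dsn1 (chr2:156995062-157007075, minus strand), a Mis12 complex subunit, stood at 31.5, 28.7, 31.1 and 30.1 TPM in control and at 25.1, 23.3, 21.9 and 22.5 TPM in cKO (log2 change -0.37, SE 0.0568, limma adjusted p = 0.00741). Spc25 (chr2:69193895-69206213, minus strand), from the centromere-facing end of the Ndc80 complex, stood at 69.3, 65.7, 64.8 and 64.6 TPM in control and 54.5, 54.3, 49.4 and 54.99 TPM in cKO (log2 change -0.31, SE 0.0496, limma adjusted p = 0.00932). Both genes had every cKO library below every control library. Within the Ndc80 complex, Spc24 (control mean 53.3 TPM, cKO mean 38.9 TPM, log2 change -0.44) and Nuf2 (control mean 35.6 TPM, cKO mean 28.03 TPM, log2 change -0.34) fell as well. Ndc80 itself did not pass the test (control mean 28.3 TPM, cKO mean 24.04 TPM, log2 change -0.23, adjusted p = 0.116) although its groups did not overlap, and its 95% interval was -0.41 to -0.05. Control levels of the 4 subunits in TPM, a scale per length, ran from 28.3 for Ndc80 and 35.6 for Nuf2 to 53.3 for Spc24 and 66.1 for Spc25.

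Besides Dsn1, the Mis12 complex genes Nsl1 (control mean 15.1 TPM, cKO mean 11.97 TPM, log2 change -0.31, adjusted p = 0.0458) and Pmf1 (control mean 98.8 TPM, cKO mean 80.5 TPM, log2 change -0.29, adjusted p = 0.0281) fell. Mis12, the namesake, did not pass, with 24.8, 23.1, 22.6 and 19.8 TPM in control and 20.5, 24.7, 19.1 and 18.7 TPM in cKO (log2 change -0.12, SE 0.0949, limma adjusted p = 0.496). Its highest cKO value, in replicate 2, was close to the highest control value, and its row overlaps Derl2 on the opposite strand. Knl1, the scaffold that docks the checkpoint kinase Bub1, fell from a control mean of 11.8 ± 0.247 TPM to 9.199 ± 0.277 TPM (SD, n = 4 each, log2 change -0.32, SE 0.0551, limma adjusted p = 0.0115), with a small spread in both groups. Zwint, a partner of Knl1 and the most abundant of the 43 transcripts, had 217, 195, 210.2 and 213 TPM in control and 212, 205, 169 and 198 TPM in cKO. Only cKO replicate 3 lay below the lowest control library, and the gene did not pass (log2 change -0.09, SE 0.0707, limma adjusted p = 0.463, 95% interval -0.25 to 0.06). Calls were lost without cKO replicates 3 or 4 or control replicates 1, 2 or 3 for Nuf2, without cKO replicates 1, 3 or 4 or control replicates 1, 3 or 4 for Nsl1, and without cKO replicates 1 or 3 or control replicates 1 or 3 for Pmf1. Those of Dsn1, Spc24, Spc25 and Knl1 held without each single library.

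Of the SKA complex, which keeps kinetochores on shortening microtubules, 1 of 3 genes fell. Ska3 (chr14:57806558-57826291, minus strand) had 21.3, 19.6, 22.2 and 20.9 TPM in control and 15.4, 18.9, 14.4 and 15.7 TPM in cKO (log2 change -0.37, SE 0.0803, limma adjusted p = 0.029), with no overlap. Its call was lost without any library other than cKO replicate 2 and control replicate 2, and its row overlaps Mrpl57 on the opposite strand. Ska1 had 9.81, 9.19, 9.26 and 9.15 TPM in control and 8.19, 8.304, 7.098 and 7.04 TPM in cKO; the groups did not overlap, but it missed the threshold (limma adjusted p = 0.0612). Ska2 had 60.3, 53.6, 56.7 and 59.3 TPM in control and 55.8, 58.9, 49.5 and 53.1 TPM in cKO, with overlapping groups (log2 change -0.08, SE 0.0623, limma adjusted p = 0.479). Ska2 was thus the most abundant subunit in both groups and the one with the smallest fitted change.

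In the spindle checkpoint, 3 of 5 genes fell, and the fitted change of Bub1b was the largest of all 43. Bub1b (chr2:118598202-118641592, plus strand), which encodes the BubR1 subunit of the mitotic checkpoint complex, stood at 82.8, 78.7, 79.7 and 78.2 TPM in control and 57.2, 63.3, 51.6 and 59.2 TPM in cKO. Every cKO value was below every control value. The means were 79.8 ± 2.07 and 57.8 ± 4.85 TPM (SD, n = 4), 72.4% of control (log2 change -0.46, SE 0.061, limma adjusted p = 0.00361). Bub1 (chr2:127800197-127831859, minus strand), the kinase that recruits other checkpoint proteins, went from 38.1, 34.3, 35.8 and 38.8 to 29.1, 29.8, 23.99 and 29.95 TPM (log2 change -0.37, SE 0.0762, limma adjusted p = 0.0229), again with no overlap. Mad2l1, the anaphase inhibitor Mad2, fell from 60.1 to 45.8 TPM (log2 change -0.39) with an adjusted p of 0.03. Bub3, the shared partner of Bub1 and BubR1, did not pass, at 88.04, 81.1, 88.3 and 85.01 TPM in control and 86.9, 87.3, 71.4 and 76.02 TPM in cKO (log2 change -0.09, SE 0.0694, limma adjusted p = 0.457). Its cKO replicates 1 and 2 lay within the control range and replicates 3 and 4 below it. Ttk, the kinase Mps1 that starts checkpoint signalling, had 19.5 TPM in control and 17.03 TPM in cKO (log2 change -0.19) and did not pass (adjusted p = 0.15). The call of Bub1 was lost without cKO replicate 1 or control replicates 1, 3 or 4, that of Mad2l1 without control replicates 1, 2 or 3, and that of Bub1b under no omission.

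Genes of the fibrous corona and of dynein recruitment gave 3 of 4 that fell. Cenpf (chr1:189640606-189688107, minus strand), a large coiled-coil protein of the corona, stood at 31.99, 33.9, 34.3 and 33.2 TPM in control and 25.3, 27.7, 24.99 and 25.8 TPM in cKO (log2 change -0.35, SE 0.0507, limma adjusted p = 0.00605). Spdl1 (chr11:34809185-34833665, minus strand), which encodes the dynein adaptor Spindly, went from 21.7, 18.6, 20.8 and 19.7 to 15.99, 16.6, 12.04 and 14.6 TPM (log2 change -0.43, SE 0.0939, limma adjusted p = 0.0286). Neither gene had any overlap between groups. Cenpe, the kinesin that carries chromosomes to the metaphase plate, fell from 28.4 to 23.9 TPM (log2 change -0.23) with an adjusted p of 0.0433, close to the threshold. Zw10, the dynein-recruiting subunit of the Rod-Zwilch-Zw10 complex that also serves membrane traffic in interphase, had 28.3, 24.6, 27.5 and 27.4 TPM in control and 24.9, 26.9, 22.4 and 26.1 TPM in cKO and did not pass (log2 change -0.10, SE 0.0683, limma adjusted p = 0.408). Only cKO replicate 3 of Zw10 lay below the control range. The call of Spdl1 was lost without control replicates 1, 3 or 4, and that of Cenpe without any library other than control replicate 4 (limma adjusted p up to 0.102).

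In the chromosomal passenger complex, 2 of 4 genes fell. Cdca8 (chr4:124918465-124936917, minus strand), which encodes Borealin, stood at 108, 100.1, 105 and 109.6 TPM in control and 80.8, 84.4, 68.9 and 77.1 TPM in cKO, so the highest cKO value was under the lowest control value (log2 change -0.44, SE 0.0639, limma adjusted p = 0.00624). Incenp (chr19:9872295-9899489, minus strand), the scaffold that activates Aurora B, went from 66.9, 57.4, 68.6 and 64.1 to 54.9, 53.4, 51.2 and 54.7 TPM (log2 change -0.26, SE 0.0595, limma adjusted p = 0.0354). Its call was lost without any library other than control replicate 2. Birc5, which encodes Survivin, had 119, 102, 113 and 114 TPM in control and 95.99, 104, 80.04 and 85.4 TPM in cKO, and cKO replicate 2 reached into the control range (log2 change -0.30, SE 0.0817, limma adjusted p = 0.0605). Aurkb, the kinase Aurora B, had 47.7, 42.3, 52.1 and 51.6 TPM in control and 43.2, 42.7, 38.5 and 38.3 TPM in cKO, with overlap at control replicate 2 (log2 change -0.24, SE 0.0742, limma adjusted p = 0.082). Both missed the threshold, and they passed when the overlapping library was left out (limma adjusted p = 0.0332 for Birc5 without cKO replicate 2 and 0.0427 for Aurkb without control replicate 2). That choice of libraries follows from the values themselves, so these are not calls.

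**Figure D4:**
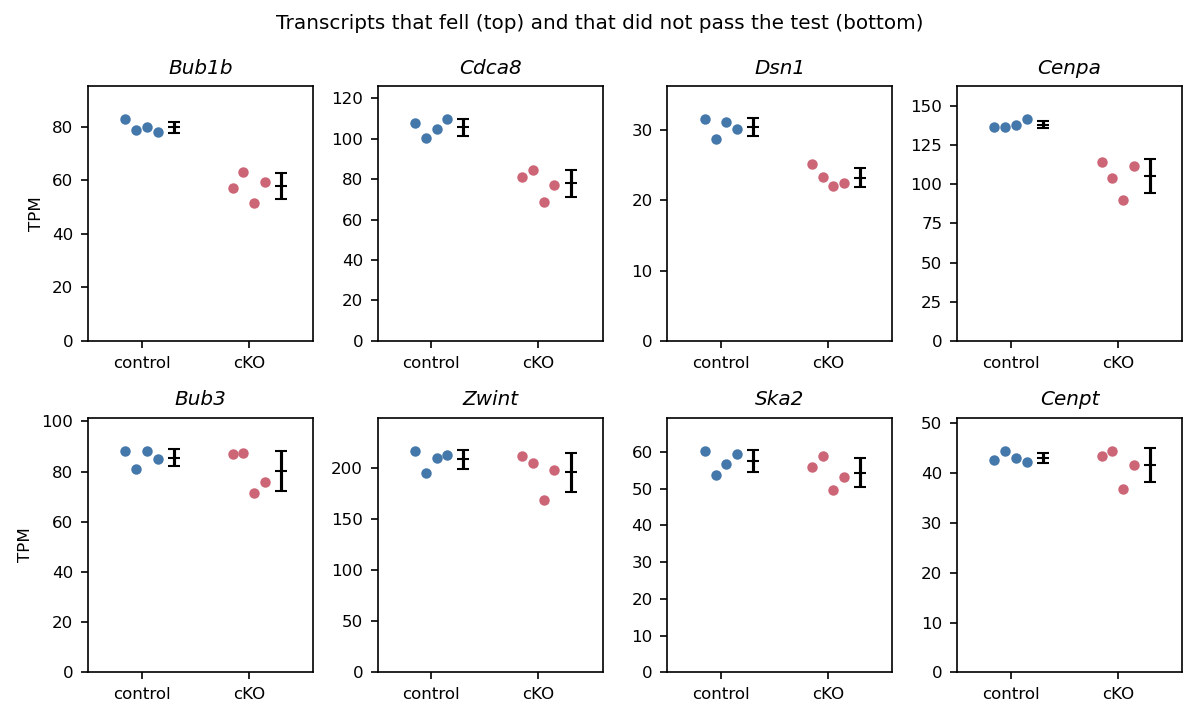
TPM (y axis, from 0) of 8 genes in the 4 control and 4 cKO libraries (points), with mean and SD (bars, n = 4). In the top row (Bub1b, Cdca8, Dsn1, Cenpa) every cKO point lies below every control point, and in the bottom row (Bub3, Zwint, Ska2, Cenpt) the groups overlap.

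A list of 31 other genes that act at kinetochores or centromeres, chosen by function, was read beside them. Of these, 28 had a fitted change below 0, 13 fell and 0 rose (background 4.23% lower and 2.16% higher), with a median of -0.25. The 3 with the smallest p were Ppp1cc, a catalytic subunit of the phosphatase PP1 (control mean 206 TPM, cKO mean 171 TPM, log2 change -0.27, adjusted p = 0.00881), Knstrn, a partner of Spag5 at the kinetochore (control mean 57.9 TPM, cKO mean 44.6 TPM, log2 change -0.37, adjusted p = 0.00964), and Rangap1, the activator of the Ran GTPase (control mean 156 TPM, cKO mean 119 TPM, log2 change -0.39, adjusted p = 0.0105). The 3 above 0 were Mad2l1bp (log2 change 0.06), Ndel1 (0.03) and Clasp2 (0.01), none past the threshold. The number that fell was 7 without cKO replicate 1, 6 without cKO replicate 3, 7 without control replicate 1 and 6 without control replicate 3. In these fits the share of all tested genes called lower was 1.58%, 1.72%, 1.47% and 1.47%, in the same order.

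The change was then read against other mitotic transcripts of the same libraries. A reference of 30 mitotic genes that are not among the 43 (Mki67, Top2a, Ccnb1, Cdk1 and others) had a median log2 change of -0.33, with 28 of 30 called lower, Mki67, a marker of dividing cells, among them (control mean 122 TPM, cKO mean 91.98 TPM, log2 change -0.40). Its summed level was 2707, 2498, 2574 and 2605 TPM in control replicates 1 to 4 and 2106, 2103, 1837 and 2039 TPM in cKO replicates 1 to 4. The summed level of the 43 genes was 1954, 1786, 1906 and 1900 TPM in control and 1638, 1665, 1400 and 1550 TPM in cKO. Cdkn1a, which encodes the cell cycle inhibitor p21, rose from a control mean of 29.9 ± 3.76 TPM to 174 ± 27.03 TPM in cKO (SD, n = 4 each, log2 change 2.50, SE 0.12, limma adjusted p = 6.53e-06). Both sums kept the groups apart, and both were lowest in cKO replicate 3. The ratio of the 43 genes to the reference was 0.727 ± 0.0111 in control and 0.773 ± 0.0147 in cKO (SD, n = 4), with all cKO ratios above all control ratios. Zwint, the most abundant of the 43, weighs most in their sum. In the reference sum Ube2c weighs most (control mean 327 TPM, log2 change -0.46). The ratio without these genes is not given here.

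**Figure D5:**
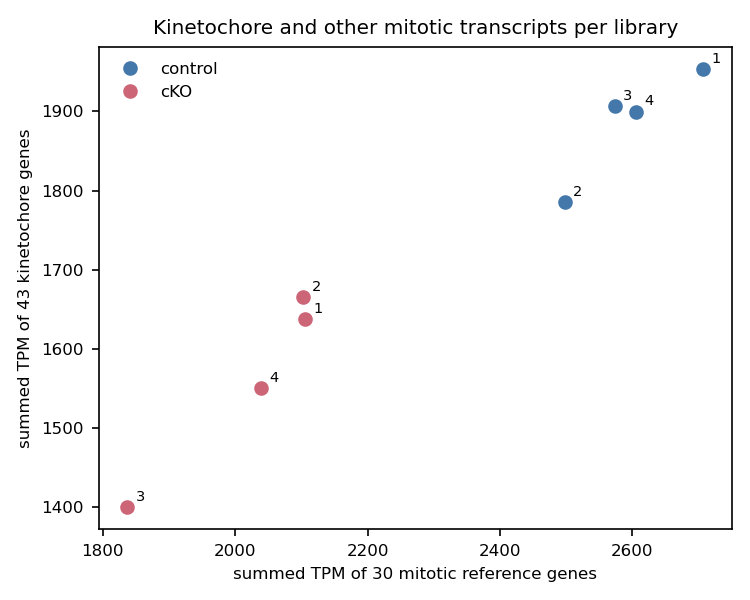
Summed TPM of the 43 genes (y axis) against summed TPM of 30 mitotic reference genes (x axis) in each library; numbers are replicate numbers, and both axes start above 0. The cKO libraries (red) lie below and left of the control libraries (blue), with cKO replicate 3 lowest on both axes.

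For a test per gene, the mean log2(TPM + 1) of the reference genes was subtracted from each library before the same limma fit. This adds 0.34 to every fitted change, so that 69.9% of all tested genes were called higher and 0.232% lower relative to the reference, with a median of 0.32. Among the 43 genes the median relative change was 0.03; 32 did not pass the threshold, 10 were called higher and 1 lower. The 10 were Hjurp, Cenpl, Cenpq, Cenpt, Mis12, Zwint, Ska2, Bub3, Ttk and Zw10. Of these, Cenpt (relative log2 change 0.29, 95% interval 0.16 to 0.41, limma adjusted p = 0.00205), Ska2 (0.26, 0.15 to 0.36, adjusted p = 0.00174), Bub3 (0.24, 0.13 to 0.36, adjusted p = 0.0028), Zwint (0.24, 0.14 to 0.35, adjusted p = 0.00219) and Zw10 (0.24, 0.11 to 0.36, adjusted p = 0.00508) were called higher under each of the 20 alternatives. Relative to the reference these 5 genes were higher in cKO, while their own change from control did not pass the test. They had the smallest fitted falls of the 43, so the 0.34 added to every change left them highest. The share of all tested genes called higher under each alternative is not given here. The share of the 43 called higher, 23.3%, was below the 69.9% of all tested genes. The gene called lower was Bub1b (-0.13, limma adjusted p = 0.0438), a call that held under 8 of the 20 alternatives. The number past the threshold was 7 without cKO replicate 1, cKO replicate 2, control replicate 1 or control replicate 2, and 6 without control replicate 3 or control replicate 4.

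Partners within complexes stood at different sides of the threshold. In the checkpoint, the pair Bub1 and Bub1b fell and their shared partner Bub3 did not pass; in the SKA complex Ska3 fell and Ska2 did not pass. In the Mis12 complex 3 of 4 genes fell and Mis12 did not pass. The fitted intervals of Bub1b (-0.60 to -0.33) and Bub3 (-0.25 to 0.06) do not overlap. Those of Bub1 (-0.54 to -0.20) and Bub3 do, as do those of Ska3 (-0.55 to -0.19) and Ska2 (-0.22 to 0.06) and of Dsn1 (-0.50 to -0.25) and Mis12 (-0.33 to 0.09). All these intervals come from the same libraries, and their overlap is not a test of a difference between genes. No test compared one partner with another. The fit relative to the reference took each gene singly and called 69.9% of all tested genes higher. In it Ska2, Bub3 and Mis12 were called higher and Bub1b lower, while Ska3, Bub1 and Dsn1 did not pass. The call of Mis12 held under 11 of the 20 alternatives and that of Bub1b under 8. In all, 14 of the 43 rows overlap another row, among them also Hjurp with Mroh2a, Nsl1 with Tatdn3, Incenp with Gm19054 and Ska2 with Mir301. Over all 43 genes, 10 of the 21 calls held without each single library: Cenpa, Cenpi, Cenpm, Spc24, Spc25, Dsn1, Knl1, Bub1b, Cenpf and Cdca8.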

How the data were processed

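RNA sequencing libraries from 4 cKO and 4 control embryonic ventricles were compared; groups and replicate numbers come from the sample titles. The authors deposited 1 table of TPM values, each column of which sums to 1000000, per the file's own values. Per the submitters' processing notes, the tools listed include Trim Galore 0.6.7, HISAT2 2.2.1 and StringTie 2.2.1 with GRCm38, in no stated role; the annotation, the use of strand and the tool that made the table are not given in the sources used here. Depth is unknown, so precision is that between libraries. Per the series text the replicates are biological.

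Values were analysed as log2(TPM + 1) with limma 3.58.1 in R 4.3.3 (group as the only term, mean-variance trend, two-sided), for rows averaging 1 TPM or more, with Benjamini-Hochberg adjustment over all 15541 of them; fold changes on this scale understate changes of low genes. Single sums were compared by exact permutation over 70 assignments. The fitting script was tested on simulated data.

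The members and lists were chosen with earlier results of these data known. Values per library are given for the 2 genes with the smallest p and the 1 with the largest p of each of 7 role groups and for the 3 genes with the highest control TPM; other genes are given by means. Alternatives were a pseudocount of 0.1 or 5, no filter or one at 5 TPM, scaling by quantiles, by median ratios or after removal of mitochondrial and globin genes, array weights, no mean-variance trend, a replicate block, an erythroid or a Y-linked score as a covariate, and leaving out each library. Figures were drawn with matplotlib 3.10.9.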

Additional observations from a re-analysis of the deposited data

Results flagged for a closer look

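Within groups of 4 libraries, 4 of 86 groups held a library far from the other 3 by Dixon's test of the gap over the range. Chance gives about 1 in 20 for a single group. The 86 groups come from the same 8 libraries, so that rate cannot judge their count. All 4 flags were low values in cKO replicate 3. Cenpw stood at 10.6 TPM in cKO replicate 3, with the other cKO libraries between 14.7 and 15.4 TPM. Ndc80 stood at 20.3 TPM in cKO replicate 3, with the other cKO libraries between 24.96 and 25.5 TPM. Spc25 stood at 49.4 TPM in cKO replicate 3, with the other cKO libraries between 54.3 and 54.99 TPM. Bub1 stood at 23.99 TPM in cKO replicate 3, with the other cKO libraries between 29.1 and 29.95 TPM. Among them Spc25 and Bub1 were called lower with all libraries; without cKO replicate 3 their log2 changes were -0.27 (limma adjusted p = 0.0208) and -0.30 (limma adjusted p = 0.0307).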

How the results depend on the processing

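Over the 20 alternatives, 42 of the 43 fitted changes stayed below 0 and 8 of the 21 calls were kept under every one (Cenpi, Cenpm, Spc24, Spc25, Dsn1, Bub1b, Cenpf and Cdca8); 0 members were called higher under any. The number called lower, 21 as reported, was 10 with the Y-linked covariate, 12 with the erythroid covariate, 9 with no filter on low values (32491 rows tested) and 12 with the replicate block. Calls over all tested genes, 994 as reported, were 337, 642, 347 and 420 in the same order and 609 without a trend. The wider list of 31, with 13 calls as reported, had 4 with the Y-linked covariate, 4 with no filter and 7 with the replicate block. The share of all tested genes called lower, 4.23% as reported, was 1.27%, 0.637% and 1.55% in these fits, in the same order. With the erythroid covariate that share was 2.48%. Genes past the threshold relative to the mitotic reference, 11 as reported, were 6 with either covariate, 7 with a pseudocount of 0.1, 6 after quantile normalization and 7 with the replicate block. More rows were tested with no filter; for the other alternatives the cause was not tested.

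Leaving out single libraries gave 10 to 20 members called lower, 6 to 10 past the threshold relative to the reference, 6 to 12 of the wider list, 388 to 936 of all genes, and a median change of -0.33 to -0.24. Deviations of same-numbered cKO and control libraries had correlations of -0.09 to 0.07, within those of the other pairs (-0.13 to 0.12). The labels give no pairing, and these correlations cannot exclude one. The depth behind TPM is unknown, so its limit on these values could not be computed.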
